A study of Drosophila melanogaster with 2 samples.

Results

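Long TADs are here the topologically associating domains of 120 kb or more on the chromosome arms 2L, 2R, 3L, 3R and X of Drosophila melanogaster. They were selected on length alone, counted from the first to the last base of each segment in the deposited list. The rule found 330 of 1305 TADs (25.3%, 95% Wilson interval 23.0 to 27.7%, counting error only). The data are one Hi-C map of Kc167 cells, an established line of embryonic origin that was grown without any treatment or genetic change named in the labels, and they describe this line rather than a tissue. In Hi-C, digested DNA is ligated inside fixed nuclei, and each sequenced pair of joined ends, a di-tag, counts as one contact between a pair of loci. The 2 replicates were combined before deposition, so there is 1 map and no value below carries a replicate SD. The quartiles and ranges given are the spread over TADs, and the intervals cover counting error only.

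A TAD is a stretch of chromosome in which loci contact each other more often than they contact loci beyond its ends, and it appears as a square along the diagonal of a Hi-C map. In Drosophila, TADs follow the chromatin state: large ones tend to hold inactive or Polycomb-bound chromatin, and the zones between them tend to be rich in active genes. Contact falls steeply with distance along the chromosome, so contacts are compared at equal distance. Here each normalised value was divided by the mean of its arm at the same distance, and this observed over expected value, O/E, is 1 where a pair is as frequent as the average pair of the arm.

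The segments had been called on the same normalised map, so the members were chosen by the same contact values that lie inside them. The inner contacts are therefore a description and were not tested. The long TADs covered 64.2 of the 117.7 Mb in TADs, or 54.6% of the length with 25.3% of the domains. Their median length was 170 kb, with quartiles of 140 and 220 kb and a maximum of 620 kb. They held 6420 bins of 10 kb, of which 12 had no di-tags and 209 had a total under 0.25 times the median of their arm. Such low-total bins fell in 57 of the long TADs, empty bins in 11, and 269 long TADs had neither. The median bin of a long TAD held 5527 di-tags, close to the 5629 of a bin in the shorter TADs. Between bins at least 20 kb apart, the long TADs held 5701744 di-tags in all, with a median of 13800 per TAD.

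The arms differed in how much of their length was in long TADs. On 2L, 3L, 3R and X there were 63, 70, 84 and 67 long TADs, which made up 57.9%, 57.4%, 55.5% and 57.9% of the length in TADs. Arm 2R stood lower, with 46 long TADs among 253 (18.2%) and 42.8% of the length. Its long TADs were no shorter, with a median of 175 kb against 160 to 180 kb on the other arms. They were also the most clearly set off from their surroundings: contacts inside were a median of 2.63 times those crossing the ends at equal distance on 2R, against 1.92 to 2.29 times on the other arms.

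Along the arms, long TADs took up similar shares of length from the centromere to the telomere. In equal parts of 20% of each arm, counted from the centromere side, 56.2%, 56.8%, 56.6%, 51.0% and 52.2% of the length was in long TADs. Over shorter stretches the share was uneven. In the 57 windows of 2 Mb it ran from 24% to 94.3%, with a median of 53.5%, from 3L between 8000001 and 10000000 at the lowest to 2L between 14000001 and 16000000 at the highest. The second of these parts on 2L was the richest on any arm, at 83.9%, and the last one on 2R, next to the telomere, held 35.1%.

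Long TADs were bordered mostly by small domains. The median neighbour was 50 kb long, with quartiles of 40 and 90 kb. Of 642 neighbours, 128 were themselves long (19.9%, Wilson interval 17.0 to 23.2%), where 25.2% of all neighbour places on these arms were held by a long TAD. Each border between 2 long TADs enters this count from both sides. The 642 places are therefore not independent, and the interval is too narrow to set the share apart from 25.2%. With a threshold of 150 kb the share was 16.1% (12.9 to 19.8%), where 225 of the 1305 TADs were that long. The share of all neighbour places was not computed at that threshold, so this value does not show a shortage of long neighbours. Another 233 neighbours (36.3%, 32.7 to 40.1%) were of 40 kb or less, against 29.9% of all neighbour places. The neighbours of TADs of 50 to 110 kb were long in 24.6% of cases and those of TADs of 40 kb or less in 30.6%. Of the 314 long TADs with a neighbour on both sides, 204 (65.0%) had no long neighbour, where 57% of all TADs had none. Another 99 had 1 (31.5%, against 35.7%) and 11 had 2 (3.50%, against 7.32%).

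Counted as uninterrupted runs, the 330 long TADs formed 266 runs, of which 213 were single TADs, 44 were pairs, 7 held 3 and 2 held 4. Between one run and the next lay a median of 2 shorter TADs spanning 130 kb, with quartiles of 60 and 270 kb and a maximum of 1050 kb. The longest run lay on 2L from 13910001 to 15000000 and joined domains of 190, 260, 340 and 300 kb. These had low inner contact for their size, with O/E values over pairs at least 20 kb apart of 0.85, 0.87, 1.00 and 1.28. The 3 borders between them were also weak: the log2 of contact across the border over contact within either side was 0.24, -0.49 and -0.09, where the median boundary of the 5 arms had -0.83. The other run of 4 lay on 3L from 4830001 to 5740000.

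Inside long TADs, contact fell more slowly with distance than on the arm as a whole. Neighbouring bins 10 kb apart had a median O/E of 0.782, below the arm mean, and only 15.2% of the long TADs were above 1 at this distance. At 20 kb the median was 0.956, at 30 kb 1.08, at 50 kb 1.27 and at 100 kb 1.68, with quartiles of 1.41 and 2.03. By 100 kb 96.1% of the long TADs were above 1. The curve therefore crossed the arm mean between 20 and 30 kb. In the TADs long enough to be read further, the median was 1.97 at 150 kb (201 TADs), 2.43 at 200 kb (100 TADs) and 3.17 at 300 kb (32 TADs). On a log-log scale from 20 to 100 kb, normalised contact fell with a slope of -0.53 in long TADs, -0.76 in TADs of 50 to 110 kb and -0.86 over the arms.

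In normalised values, the median contact inside long TADs was 599 at 10 kb, 418 at 20 kb and 179 at 100 kb, where the mean over the arms was 777, 435 and 107. The shorter TADs of 50 to 110 kb had the opposite profile at short range. Their median O/E was 1.17 at 10 kb and 1.18 at 20 kb, and it stayed between 1.13 and 1.38 up to 100 kb, where 39 such TADs could be measured. The low contact of near bins was more marked in the longest domains: the 65 TADs of 250 kb or more had 0.650 at 10 kb and 0.806 at 20 kb, and passed 1 only at 40 kb, with 1.04. For all long TADs the value at 10 kb stayed below 1 on other maps, with 0.760 on the raw di-tags, 0.739 after iterative correction of them and 0.813 with low-total bins left out.

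**Figure D1:**
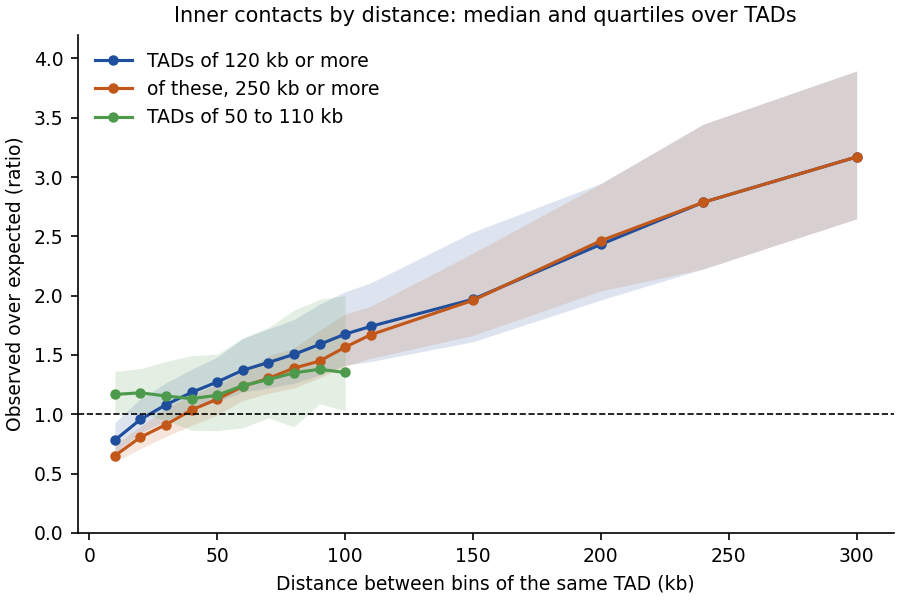
Observed over expected contact (vertical axis, a ratio, with 1 as the arm mean, dashed) against the distance between bins of the same TAD (horizontal axis, kb). Points are medians over TADs and shaded bands the quartiles. Long TADs rise from 0.782 at 10 kb to 3.17 at 300 kb, while TADs of 50 to 110 kb start above the dashed line at 1.17.

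Contacts that crossed an end of a long TAD were below the inner contacts from 20 kb on, and beyond 50 kb they too rose with distance relative to the arm mean. At 100 kb the crossing pairs had a median O/E of 0.728, so that inner pairs were 2.30 times as frequent. At 10 kb the crossing value was 0.750, close to the 0.782 inside. It was lowest at 30 kb, with 0.606, and reached 0.930 at 200 kb, 1.00 at 240 kb and 1.08 at 300 kb. Inner pairs at 300 kb were still 2.93 times as frequent as crossing pairs.

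Taken over all pairs at least 20 kb apart, the median O/E of a long TAD was 1.51, with quartiles of 1.25 and 1.77 and a range of 0.761 to 4.12. It was above 1 in 314 of 330 long TADs (95.2%), against 75.8% of all TADs measured, and the segmentation rested on the same values. Among the 883 shorter TADs measured the median was 1.18. That gap was narrower with raw di-tags, at 1.53 against 1.36, and after iterative correction, at 1.49 against 1.38. It was not narrower with low-total bins left out, at 1.56 against 1.20. Inner contact over crossing contact at equal distance had a median of 2.07, with quartiles of 1.71 and 2.63 and a range of 0.937 to 5.11. It was above 1 in 328 of 330 long TADs, against 96.4% of all TADs, and its median in the shorter TADs was 1.72.

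The O/E rose with length within the class. The 129 TADs of 120 to 150 kb had a median of 1.39, the 101 of 160 to 200 kb 1.41, the 63 of 210 to 290 kb 1.58 and the 37 of 300 kb or more 1.82. Longer TADs hold more far pairs, for which O/E was higher. There was no step at the threshold: the 39 TADs of 110 kb had 1.31, with quartiles of 1.12 and 1.61, and the 40 TADs of exactly 120 kb had 1.25, with quartiles of 1.11 and 1.42. Of all same-arm di-tags that a bin of a long TAD made with other bins, a median of 47.7% stayed inside the TAD, from 26.0% to 72.2%, against 36.0% in TADs of 50 to 110 kb. This share was 43.4% in the shortest and 56.3% in the longest of these size classes.

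The inner O/E also moved with depth. Across the 330 long TADs, Spearman's rho between the median di-tags per bin and O/E was -0.67 (Pearson's r -0.75), and -0.59 among the 269 without empty or low-total bins. Both values come from one map, and the part of depth in the O/E was not tested. Inner over crossing contact did not share this relation, with a rho of -0.04. The 3 highest O/E values lay in thinly covered TADs near centromeres, namely 4.12 on 3L from 24130001 to 24530000 (877 di-tags per bin, 33 low-total bins), 4.04 on 2R from 650001 to 1000000 (2467, 8 low-total bins) and 3.89 on 2L from 22450001 to 22780000 (2713, 8 low-total bins). Their inner over crossing ratios of 2.00, 2.64 and 2.76 were within the quartiles of the class or just above. Without empty or low-total bins the highest was 2.55, on 3R from 26430001 to 26590000.

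The lowest O/E values came from well covered domains of modest size. These were 0.761 on 2R from 7790001 to 7930000 (140 kb, 8036 di-tags per bin), 0.782 on 3R from 3710001 to 3830000 (120 kb, 7488) and 0.814 on 3R from 20580001 to 20700000 (120 kb, 7088). Inside over crossing they had 1.65, 1.28 and 1.05, so the last was barely set apart from its surroundings.

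The 5 longest TADs differed in how well they were closed off. The longest, 620 kb on 2L from 17500001 to 18120000, had an O/E of 2.26 but only 1.75 times more contact inside than across its ends, and 56.4% of its same-arm di-tags stayed inside. The 500 kb TAD on 3L from 18110001 to 18610000 had an O/E of 1.87 and a ratio of 2.57, and kept 66.3% of its di-tags. The 490 kb TAD on X from 20400001 to 20890000 had 2.00 and 2.63, and kept 65.4%. The 480 kb TAD on 2L from 15770001 to 16250000 had 1.597 and 3.13, and kept 60.1%. The 470 kb TAD on 2R from 15650001 to 16120000 was the most closed of the 5, with 2.38 and 3.39, and kept 70.1%. The log2 of contact across its left end could not be measured, and the 90 kb TAD beside that end had an O/E of 5.75. The part of this in its ratio and share was not tested. Each of the 5 was bordered on both sides by TADs of 30 to 90 kb.

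**Figure D2:**
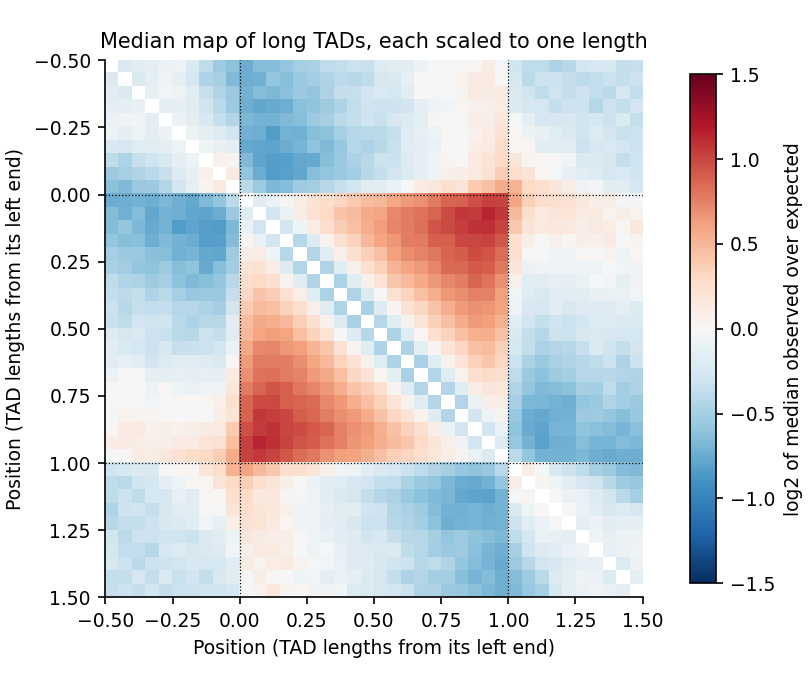
Median observed over expected contact of 325 long TADs, each rescaled to 20 cells, with 10 cells of its surroundings on either side; both axes are positions in TAD lengths and the colour is the log2 of the median. Contact inside the square between the dotted lines grows from the diagonal towards the corner that joins both ends, where the median is 2.07; pairs across either end are below the arm mean next to the diagonal and rise above it beside the corner.

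The corner of a TAD holds the pairs that join its ends, and a loop between the ends would appear there as a peak. The 3 by 3 bins of the corner had a median O/E of 2.10, from a median of 583 di-tags per TAD (5 to 2213). Pairs inside the TAD beside the corner had a median of 1.81, and squares of the same size just outside the ends had 1.25. The corner exceeded the squares outside in 316 of 330 long TADs (95.8%), with a median ratio of 1.61 and quartiles of 1.34 and 1.89. The share was 95.4% of all 458 TADs measured and 94.5% of the 128 shorter ones. For this and the later measures inside TADs, most of all TADs measured were the long TADs themselves.

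Against the pairs beside it, the excess was small. The median ratio was 1.12, with quartiles of 1.02 and 1.24. It was above 1 in 266 of 330 long TADs (80.6%, 76.0 to 84.5%), against 77.1% of all TADs measured and 68.0% of the shorter ones (59.5 to 75.4%). It was above 1.2 in 110 (33.3%), against 35.8% and 42.2%. Of the 214 TADs of 80 to 110 kb, the 128 in which the corner could be measured had a median of 1.15. The pairs beside the corner lie at shorter distances, where O/E inside TADs was lower, and that rise with distance enters the ratio. Among pairs at exactly equal distance, those in the corner had 1.14 times the contact of those beside it (quartiles 1.00 and 1.27). Most of the pairs beside it touch an outermost bin. The outermost corner pairs have no pair of equal distance beside the corner and do not enter. The ratio was above 1 in 248 of 330 long TADs (75.2%), against 72.9% of all TADs measured. With the outermost bin at each end left out this ratio was 1.04 (0.944 to 1.14), and it was above 1 in 207 of 330 long TADs (62.7%), against 61% of all TADs measured.

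The layout of the corner showed the same in single bins. Relative to the mean of the 6 by 6 bins at the corner of each TAD, the outermost pair had a median of 1.06. The highest was 1.14, for the pair 10 kb in from both ends, and the pair 50 kb in from both ends had 0.794. Along the direction from the corner towards the diagonal, the median O/E was 2.03 at the outermost pair, 2.05 at 10 kb short of the full length, 2.02 at 30 kb and 1.69 at 70 kb. The corner was thus the end of a gradual rise with a flat top, and no single peak stood out of it in the median.

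The extreme corner ratios mostly rested on few di-tags. The highest, 10.4 on 2L from 22450001 to 22780000, came from 5 di-tags (exact Poisson interval 1.62 to 11.7). The lowest, 0.0763 on 2R from 650001 to 1000000, came from a single di-tag beside the corner in a low-total bin, which alone had an O/E of 848. The next were 2.22 on 3L from 23360001 to 23530000, with 45 di-tags, and 0.609 on X from 19800001 to 20050000, with 39. Among the 269 long TADs without empty or low-total bins the ratio ranged from 0.689 to 1.84. The upper end was the TAD on X from 4830001 to 4980000, with 824 di-tags in its corner, a corner O/E of 2.37 and 1.29 beside it. The next 2 were also on X, from 6270001 to 6420000 with 1.69 and from 10370001 to 10490000 with 1.67. The lower end was the TAD on 2R from 7790001 to 7930000, which also had the lowest inner O/E. Its corner O/E of 0.569, from 595 di-tags, lay below both the pairs beside it (0.825) and the squares outside (0.714). These TADs without low-total bins were picked after their values were seen.

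At the distances that fit inside the central part of a long TAD, pairs touching the outer 30 kb and pairs in the centre had like contact. Near pairs weigh most in this comparison, and it leaves out the farther pairs. By the midpoint of the pair, contact was lower at the ends, as given in the next paragraph. At equal distance the ratio of edge to centre had a median of 0.985, with quartiles of 0.889 and 1.10. It was above 1 in 154 of 330 long TADs (46.7%, 41.4 to 52.1%), against 46% of all TADs measured and 44.2% of the shorter ones. Equal numbers stood out either way: 44 long TADs (13.3%) were above 1.2 and 44 below 0.833, against 14.4% and 15.7% of all TADs measured. Among the shorter ones these shares were 17.1% and 21.7%. On the raw di-tags the median was 1.05 and after iterative correction 1.01, so no direction can be given. The 490 kb TAD on X was among those with stronger edges, at 1.31. The strongest centre belonged to the TAD on 2L from 19580001 to 19730000, at 0.521, which holds 1 low-total bin.

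In 10 equal steps along the TAD, pairs 20 to 50 kb apart were near the mean of their TAD except at the ends. The first and last step had medians of 0.913 and 0.923, those next to them 0.972 and 0.966, and the steps between 1.00 to 1.02. Pairs 60 to 90 kb apart formed a shallow dome, from 0.895 and 0.874 in the outermost steps that such pairs reach to 1.06 in the middle. Those outermost steps could be read in only 156 and 157 TADs, against 330 in the middle. For pairs 20 to 50 kb apart, the first and last step were read in 201 and 225 TADs. The quartiles of neighbouring steps overlapped throughout.

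**Figure D3:**
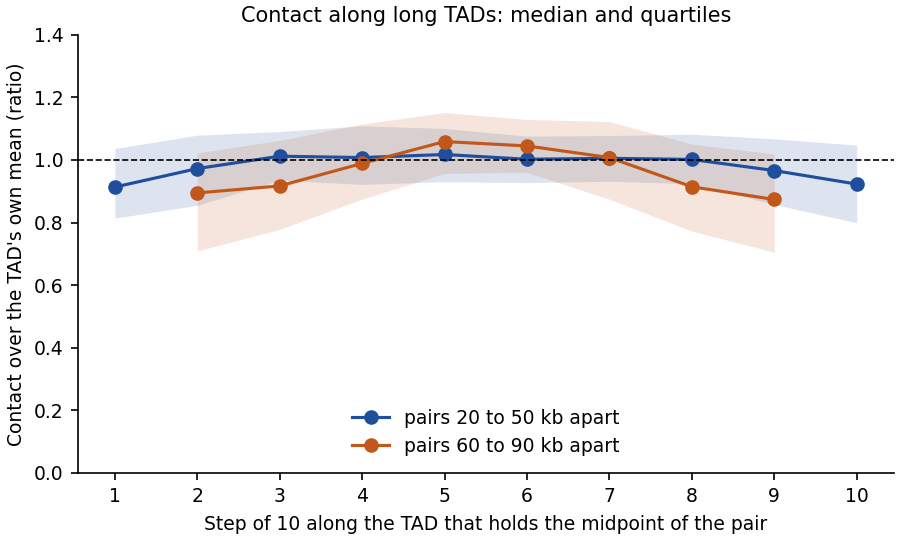
Contact relative to the mean of the same TAD at equal distance (vertical axis, a ratio) by the step, of 10 along the TAD, that holds the midpoint of the pair (horizontal axis). Points are medians over long TADs and bands the quartiles. The medians lie between 0.874 and 1.06, lower at both ends, where the outermost points cover fewer TADs.

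Pairs inside the typical long TAD varied in O/E by more than counting error. The coefficient of variation between pairs 20 to 50 kb apart within a TAD had a median of 0.227, where counting alone would give 0.0926. TADs of 80 to 110 kb had 0.253, where counting alone would give 0.0770. These distances were pooled, so the rise of O/E in long TADs, from 0.956 at 20 kb to 1.27 at 50 kb, enters the coefficient. TADs of 50 to 110 kb had 1.18 and 1.16 there. The part of distance in these coefficients was not tested. Divided at its midpoint, a long TAD had a median of 1.12 times as much contact on the stronger side as on the weaker, with quartiles of 1.06 and 1.23 and a maximum of 1.93. The ratio was above 1.5 in 12 of 330 (3.64%), against 10.3% of all TADs measured and 20.8% of the 212 shorter ones. The sides of shorter TADs hold fewer pairs, and the part of this in the difference was not tested.

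Few long TADs held an inner position as low as a typical boundary, and the number depended on the settings. Each position at least 50 kb from both ends was scored by the log2 of the contact across it over the contact within the 50 kb on either side. The 1262 boundaries measured had a median of -0.83 and an upper quartile of -0.50, and the ends of the long TADs themselves had a median of -0.59 over 650 ends, with 91.4% below 0. The 3443 inner positions had a median of 0.51. Pairs across a position lie further apart on average than pairs within either side, and O/E inside long TADs rose with distance. That rise lifts the score, so 0 does not mark an even TAD and weak inner borders may be missed. Its size in the score was not tested. In all, 1 of 330 long TADs (0.303%, 0.0535 to 1.70%) held a position as low as the median boundary. It was the only one among all 411 TADs measured (0.243%), and none of the 81 shorter ones did. Of single inner positions 1 of 3443 was as low (0.0290%), against 12% of all positions on the arms, which include the boundaries. The count of long TADs was 5 with squares of 30 kb, 4 on raw di-tags, 3 with positions from 30 kb inside the ends and 0 with low-total bins left out. At the upper quartile the count was 4 of 330 (1.21%), against 1.22% of all TADs measured and 1.23% of the shorter ones. Of single inner positions 0.116% were as low, against 24% of all positions. The segmentation places borders where contact drops, so these counts describe its outcome.

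The 4 TADs that passed each held a low-total or empty bin. The lowest position was at 19880000 in the TAD on X from 19800001 to 20050000, with -1.23 and with 4 low-total bins and 1 empty bin in the TAD. It was followed by -0.77 in the TAD on 2L from 22450001 to 22780000, -0.68 on X from 13020001 to 13160000 and -0.53 on 2L from 19580001 to 19730000. Among the 269 long TADs without such bins none reached the upper quartile, and the lowest had -0.42. A score below 0 was more common. In 84 of 330 long TADs (25.5%) the lowest inner position was below 0, against 25.8% of all TADs measured and 27.2% of the shorter ones. Over single positions 141 of 3443 were (4.10%). The median of the lowest position was 0.26 in TADs of 120 to 150 kb and 0.09 in those of 300 kb or more, which offer more positions to choose from.

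**Figure D4:**
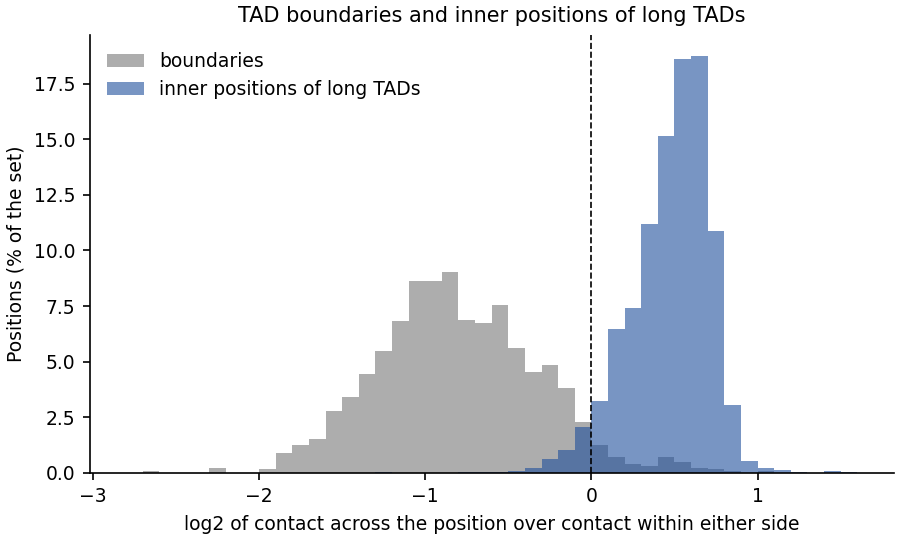
Distribution of the log2 of contact across a position over contact within the 50 kb on either side (horizontal axis), as a percentage of each set (vertical axis), for 1262 TAD boundaries and 3443 inner positions of long TADs. The boundaries centre on -0.83 and the inner positions on 0.51, with 4.10% of the inner positions below 0 (dashed).

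Beyond their own ends, long TADs contacted other long TADs more than shorter ones along the same arm. These pairs lie in different TADs, so the contacts within TADs do not enter. At 1 to 5 Mb on one arm, pairs of bins in 2 long TADs had a mean O/E of 1.08, pairs of a long with a shorter TAD 0.900 and pairs of 2 shorter TADs 1.12. The product of both like pairings over the square of the mixed one, which is 1 without any preference, was 1.5. It was 1.55 on raw di-tags, 1.54 after iterative correction and 1.51 without low-total bins. Taken alone, the long with long value was less stable, with 1.01 on raw di-tags and 0.994 after iterative correction, but it stayed above the mixed value of 0.902 and 0.900 there.

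Most single long TADs showed this. In 256 of 330 (77.6%, 72.8 to 81.7%) the O/E with other long TADs at 1 to 5 Mb was above that with shorter TADs, against 30.1% of all TADs and 14.1% of the shorter ones. The median was 1.04 with long and 0.879 with shorter TADs. The count was 213 of 269 (79.2%) without empty or low-total bins. The TAD on X from 13020001 to 13160000, at 1.71 with long and 0.671 with shorter TADs, lay far on one side. The TAD at the base of 2L, from 22840001 to 22990000, lay on the other, at 0.665 with long and 1.34 with shorter TADs. Both held low-total bins, 1 in the TAD on X and 6 in the TAD on 2L.

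Between different chromosomes the preference was weaker. Pairs of bins in 2 long TADs had 54.1 di-tags per 1000 bin pairs (702632 di-tags, exact Poisson interval 700990 to 704277), long with shorter TADs 62.0 and shorter with shorter TADs 81.8. Relative to the mean of each pair of arms, normalised contact was 0.946, 0.975 and 1.14. Long TADs were thus below the mean with each other as well as with the rest, and shorter TADs were above it among themselves. The same product of like over mixed pairings was 1.13, and lay between 1.10 and 1.17 with any one arm left out and on the other maps. The level itself turned with the map, being 0.850 on raw di-tags and 1.03 after iterative correction.

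By single TAD, the level with long TADs of other chromosomes was above that with shorter ones in 94 of 330 long TADs (28.5%, 23.9 to 33.6%), against 11.2% of all TADs and 5.33% of the shorter TADs. Contacts with other chromosomes made up a median of 7.44% of the di-tags of a long TAD and 8.89% in the shorter TADs. The highest levels with long TADs of other chromosomes were 2.47 on 3L from 24130001 to 24530000, 2.16 on X from 13020001 to 13160000 and 2.04 on 2L from 22840001 to 22990000. All 3 held low-total bins (33, 1 and 6) and had similarly high levels with shorter TADs (2.32, 2.40 and 1.91), so they were not selective. The TAD on X sent 30.8% of its di-tags to other chromosomes, the most of any long TAD. The lowest levels were 0.721 on 2R from 9130001 to 9300000, 0.722 on 3L from 4830001 to 5130000 and 0.727 on 3L from 7150001 to 7320000.

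**Figure D5:**
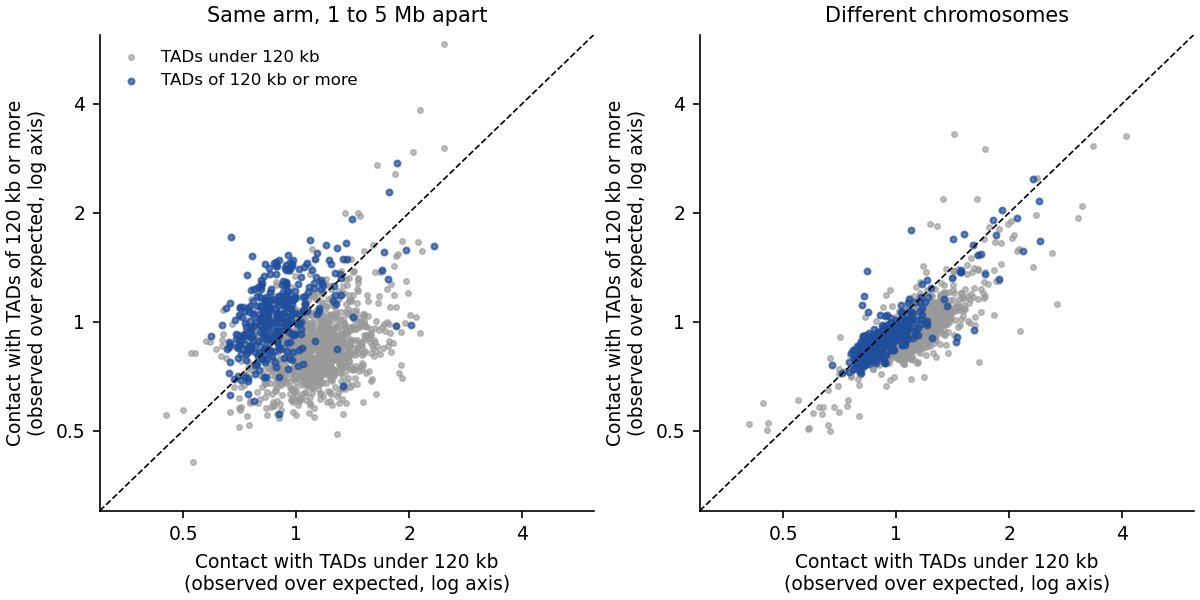
Each point is 1 TAD, placed by its mean observed over expected contact with TADs under 120 kb (horizontal, log axis) and with TADs of 120 kb or more (vertical, log axis), at 1 to 5 Mb on the same arm (left) and between different chromosomes (right). Of the long TADs, 77.6% lie above the dashed line of equal contact on the left and 28.5% on the right, against 14.1% and 5.33% of the shorter TADs.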

How the data were processed

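The authors aligned the reads of both replicates to release 5 (dm3) with HiCUP, for which the submitters' processing notes name Bowtie2 2.2.6. They pooled the replicates, binned them at 10 kb and deposited raw counts of di-tags per bin pair. The deposited normalised signal was made with GOTHiC. The segment coordinates, the other deposited values, came from HiCseg on that map, with the weakest borders removed. The 5 large arms held 29686088 same-arm di-tags.

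From these, O/E was computed per arm without the diagonal and without empty bins. Inner contact used pairs at least 20 kb apart. Shares carry 95% Wilson intervals, which cover counting error only. No p-value was computed, since 1 pooled map has no replicates. Regions named are the 5 longest TADs, the 3 highest and lowest for inner contact, corner and contact between chromosomes, the 3 lowest inner positions and the longest run. The members, measures and named regions were chosen with earlier results of these data known. Low-total bins, raw di-tags, iterative correction, other thresholds and left-out arms were tried as alternatives. The inner over crossing, edge and corner ratios and the score of inner positions were first run on a simulated arm of known structure. The other measures were not. Gene content and sequence were not used here, because no release 5 annotation or genome was at hand. Software was Python 3.11.15 (numpy 2.4.6, pandas 2.3.3, scipy 1.17.1), with figures by matplotlib 3.10.9.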

Additional observations from a re-analysis of the deposited data

How the results depend on the processing

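No paired analysis was possible because both replicates were pooled before deposition into 1 map of 1 group, and for the same reason no replicate could be left out. The cause of the changes below was not tested. The median inner O/E of 1.51 was 1.58 for TADs of at least 150 kb, 1.42 with pairs from 10 kb, 1.69 with pairs from 50 kb, 1.45 in TADs without empty or low-total bins (chosen after seeing the data) and 1.56 with low-total bins left out. Inner over crossing contact, 2.07, was 1.92 on raw di-tags and 1.95 after iterative correction. The edge to centre ratio, 0.985, was 1.05 and 1.01 on these maps. The corner ratio, 1.12, was 1.06 for a corner of 2 by 2 bins, 1.22 for 4 by 4, 1.19 on raw di-tags, 1.16 after iterative correction and 1.04 at exactly equal distance with the outermost bins left out (chosen after seeing the data).

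The single long TAD with an inner position at the boundary median became 5 with squares of 30 kb, 3 with positions from 30 kb inside the ends, 4 at the upper quartile of boundaries and 4 on raw di-tags. It became 0 without arm X, with low-total bins left out and in TADs without such bins. The share of long neighbours, 19.9%, was 24.3% for TADs of at least 100 kb and 16.1% (12.9 to 19.8%) for those of at least 150 kb. These thresholds held 411 and 225 of the 1305 TADs, so the shares cannot be set against the 25.2% of all neighbour places. With each adjacent pair counted once, 11.1% of the 578 borders of long TADs had a long TAD on both sides. That is a share of borders and not of neighbours. The shares of long neighbours count each such border from both sides, so their intervals are too narrow. Contact between long TADs of different chromosomes, 0.946, turned to 1.03 after iterative correction. It was 0.960 at 150 kb, 0.949, 0.939, 0.933 and 0.969 without 2L, 2R, 3L and 3R, 0.926 without the last 2 Mb at both ends of each arm, 0.850 on raw di-tags and 0.936 with low-total bins left out. The other alternatives, 9 for inner O/E, 9 for inner over crossing contact, 12 for the edge, 11 for the corner, 8 for inner positions, 5 for neighbours and 2 for different chromosomes, stayed within the 95% interval of the value reported or, for inner positions, within 1.5 times its count. The spread between replicates is unknown here, and depth limits the corners and inner positions of TADs with low-total bins.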
